A study of Mus musculus with 6 samples.

Results

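The genes described here code for the extracellular matrix, for the enzymes that build and cut it, for the integrins that bind it, and for the growth factors and receptors that signal through it. They were chosen by symbol, as the collagens, laminins, fibulins, fibrillins, lysyl oxidases, latent TGF-beta binding proteins, brain proteoglycans and tenascins, thrombospondins, Adam and Mmp proteases, integrins, and the Fgf, Bmp, Tgfb, Igf, Wnt and Lrp families. *Mmp12*, which had 3 events, and the congenic interval around *Nxf1* on chromosome 19, in which the pattern found 0 events, were left out. This gave 199 of the 13002 alternative RNA events on the array, in 119 of 7788 genes, and 198 of the 199 had intensities. The exception was an 81-nt segment of *Wnt11*.

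Whole brain total RNA came from the B6.CAST congenic line, in which animals were homozygous for either the B6 or the CAST allele of *Nxf1*, a gene for a nuclear mRNA export receptor. There were 3 animals of each genotype in 3 same-sex littermate pairs, with 1 Affymetrix MJAY splicing-sensitive array for each animal. Pair 1 was female and aged 46 days, pair 3 female and aged 23 days, and pair 2 male, with the *Nxf1* CAST animal aged 23 days and its *Nxf1* B6 littermate 22. Flanking CAST sequence travels with the *Nxf1* allele in such a line, and whole brain mixes all of its cell types. The question was whether the *Nxf1* allele alters alternative RNA processing, here in the matrix and growth factor genes.

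Each event compares RNA that skips a segment (exclusion) with RNA that contains it (inclusion). The deposited table gives 1 exclusion and 1 inclusion intensity for each of its sets A and B, pooled over the arrays of a set. It does not name the sets by genotype. From the order of samples in its header and its definition of the score, set B was likely *Nxf1* CAST, and every direction below is given as set B over set A. The log2 ratio is the log2 of exclusion over inclusion in set B minus the same in set A, so a value above 0 means relatively more exclusion in set B. Because values per animal are not in the columns used, no spread between animals and no test could be computed, and each difference below compares 2 pooled values only. A log2 ratio over 0.5 in absolute size is called past the fold. Intensities are given in pairs with set A first.

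The extracellular matrix is a secreted network of collagens, laminins, proteoglycans and elastic fibre proteins, which integrins link to the cytoskeleton. In the adult brain fibrillar collagens are largely kept to the meninges and vessels, basement membranes surround the vessels, and a matrix of lecticans and tenascins fills the space around neurons. Many of these genes code for modular proteins made of repeated domains, and several are textbook cases of alternative splicing, among them the Fgf receptors, the tenascins and the laminin-binding integrins.

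Alternative starts are events at which the array follows a choice of promoter. Of the 31 such events in these genes, 3 were past the fold (9.68%), beside 6.32% of the 2248 alternative starts on the array. They were those of *Wnt7b* (log2 ratio -0.57), *Lrp1b* (0.56) and *Igf1r* (0.50). *Igf1r*, the receptor tyrosine kinase for insulin-like growth factor 1, had the smallest of these, which came under the fold after centring on the median of all events (0.47). *Ltbp1*, which anchors latent TGF-beta in the matrix, had a start event with the lowest log2 ratio of its role group. The promoters of *Igf1r* and *Ltbp1* are shown as examples of a start in each kind of gene, a receptor and a matrix protein. Each run holds the 250 bases before a transcription start in RefSeq (GRCm38.p6, plus strand), in lower case with CG dinucleotides in capitals.
Igf1r, chr7:67952007-67952256: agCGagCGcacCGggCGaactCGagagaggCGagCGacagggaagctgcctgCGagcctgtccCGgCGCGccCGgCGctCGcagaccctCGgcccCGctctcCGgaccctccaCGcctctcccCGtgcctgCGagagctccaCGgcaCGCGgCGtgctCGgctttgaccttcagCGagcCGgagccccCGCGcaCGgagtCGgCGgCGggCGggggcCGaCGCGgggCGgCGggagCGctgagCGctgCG
Ltbp1 promoter 1, chr17:75005279-75005528: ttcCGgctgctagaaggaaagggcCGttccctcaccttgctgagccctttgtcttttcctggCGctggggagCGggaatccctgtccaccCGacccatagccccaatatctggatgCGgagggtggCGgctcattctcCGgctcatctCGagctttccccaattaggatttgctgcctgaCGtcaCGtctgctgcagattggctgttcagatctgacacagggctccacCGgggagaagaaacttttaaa
Ltbp1 promoter 2, chr17:75178531-75178780: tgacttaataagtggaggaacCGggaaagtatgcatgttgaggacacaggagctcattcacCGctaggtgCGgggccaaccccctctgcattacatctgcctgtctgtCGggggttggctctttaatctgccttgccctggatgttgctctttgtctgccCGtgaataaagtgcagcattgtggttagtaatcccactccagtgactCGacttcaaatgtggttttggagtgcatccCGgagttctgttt
The *Igf1r* promoter held 42 CG dinucleotides and was 77.6% G or C, against a median of 6 CG over the 32851 RefSeq promoters of the same length. The *Ltbp1* promoters held 12 and 7. On both strands, the letters GGGCGG (GC box) occurred 2 times before *Igf1r* and are present in 32.7% of all promoters. CCAAT occurred 3 times in *Ltbp1* promoter 1 and is present in 33.8% of all promoters. TATAAA, present in 12.4%, was in none of the 3 windows. These matches describe the letters only.

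At the *Igf1r* start (chromosome 7, 75097142 to 75309878 in the table) exclusion was 131 in A and 173 in B, while inclusion was 1794 and 1674, a log2 ratio of 0.50. Exclusion was higher and inclusion lower in set B. At the *Ltbp1* start exclusion was 174 and 146 and inclusion 230 and 263, a log2 ratio of -0.45, just under the fold. The 2 RefSeq starts of *Ltbp1* lie 173252 bp apart and the event spans 173508 bp in the positions of the table, whose genome build is not given in the sources used here. For *Igf1r* only 1 promoter is shown, although its event spans 212736 bp, so the other start of that event is not shown. Which path of either event belongs to which start was not tested.

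Across all matrix, integrin and growth factor genes, few events differed widely between the sets. Past the fold were 14 of 198 events, in 13 genes, which is 7.07%, beside 7.34% of all 12948 events on the array with intensities. More exclusion in set B past the fold was seen at 9 of the 191 events that had an exclusion path, beside 4.52% of all such events. More inclusion past the fold was seen at 5, beside 2.72%. The median absolute log2 ratio was 0.18 in these genes and 0.18 over the array, and the 90th percentile 0.44 and 0.45. The 7.34% is the background for every count past the fold in the sets that follow, each of which rests on few events. The shares and sizes over all 198 events are close to those of the array, and nothing in them sets this group of genes apart. Log2 ratios ran from -0.63 to 0.93, and 53.9% lay above 0, beside 55.3% over all events with an exclusion path. Many of the intensities were low. With 50 added to every intensity, 5 of the 14 events stayed past the fold, those of *Loxl3*, *Ltbp1*, *Adamts10*, *Fgf8* and *Itga6*.

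**Figure D1:**
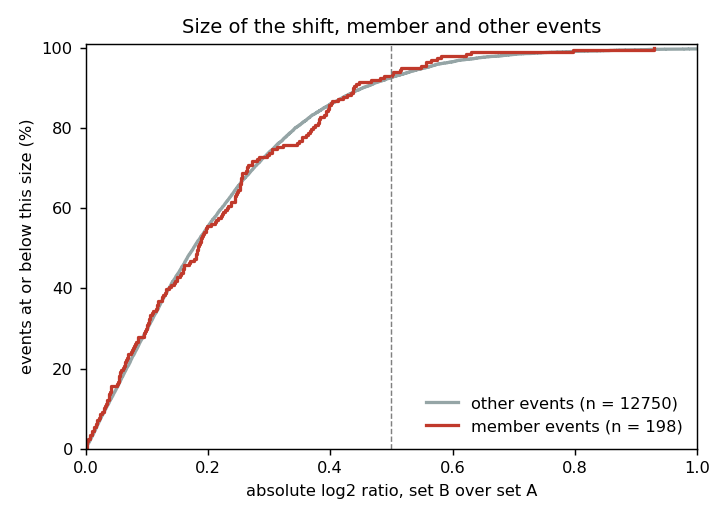
Cumulative share of events (%) by absolute log2 ratio, set B over set A, for the 198 events of matrix, integrin and growth factor genes and the 12750 other events. The curves lie close together, and the dashed line marks 0.5.

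**Figure D2:**
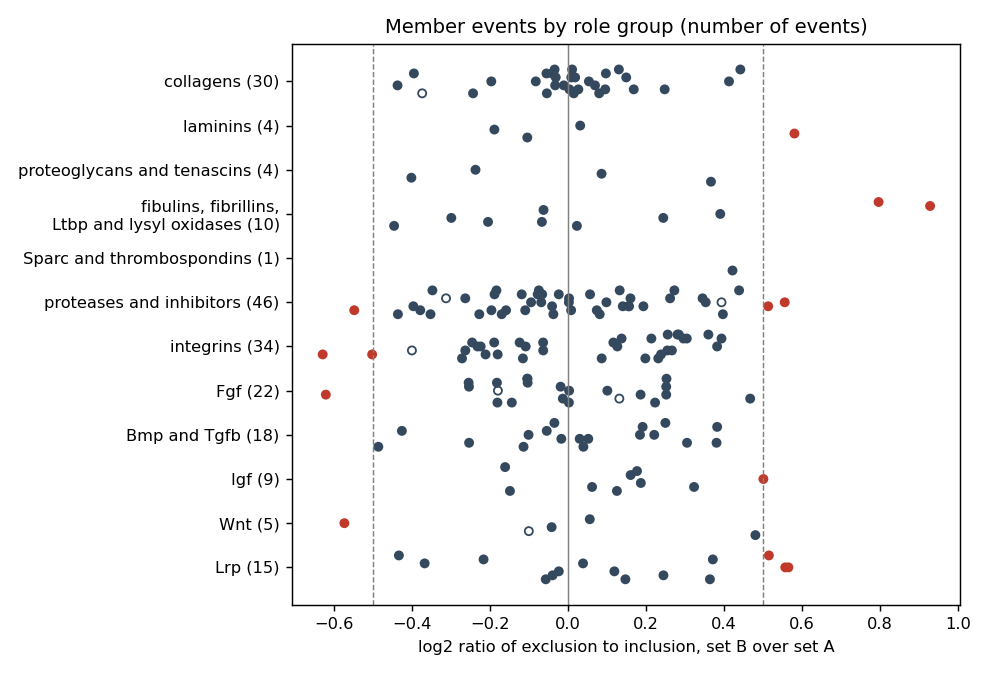
Log2 ratio of exclusion to inclusion, set B over set A, for each event by role group, with the number of events in parentheses. Red points are past 0.5 in absolute size (dashed lines), and open points are the 7 events without an exclusion path, whose sign has no such meaning.

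The largest shift was in a lysyl oxidase. *Loxl3* belongs to the enzymes that crosslink collagen and elastin, and its event is a 124-nt alternative 3' splice site on chromosome 6 (82984263 to 82985594). Exclusion was 111 and 172, and inclusion 172 and 140. Exclusion was thus higher and inclusion lower in set B, with a log2 ratio of 0.93 that ranked 47 of all events by size. In *Ltbp1* a 158-nt alternative 3' splice site (chromosome 17, 75673354 to 75675915) had exclusion of 386 and 487 and inclusion of 95 and 69, a log2 ratio of 0.80 and rank 115. These were the only events of the group past 0.75, and both were in the set of fibulins, fibrillins, latent TGF-beta binding proteins and lysyl oxidases, where 2 of 10 events were past the fold, beside 7.34% of all events and 9.09% of all alternative 3' splice sites. By summed intensity the *Loxl3* event was in the dimmest quartile of the array.

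The other genes of elastic fibres and their ligands stayed under the fold. *Fbn1* codes for fibrillin-1, the backbone of microfibrils, and its 547-nt intron had 121 and 183 for the spliced form and 143 and 165 for the retained form (log2 ratio 0.39). *Ltbp4*, which also binds latent TGF-beta, had log2 ratios of -0.30 at its end and -0.21 at its start. *Fbln2*, a fibulin of basement membranes and elastic fibres, had log2 ratios of 0.24 at its start and -0.07 at a 141-nt cassette, where all 4 intensities lay between 65 and 108. The log2 ratios of *Fbln1* (0.02) and *Loxl2* (-0.06) were close to 0.

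Of the laminins, which form the sheet of basement membranes, 1 of 4 events was past the fold, beside 7.34% of all events. It was a retained intron of 133 nt in *Lamb1-1* (*Lamb1* in RefSeq), the gene of the beta1 chain, at 31950209 to 31950344 on chromosome 12. The spliced form had 157 and 217 and the retained form 145 and 134, a log2 ratio of 0.58. The shift lay on the spliced side, since the retained form differed little. Log2 ratios were -0.10 in *Lama1*, the gene of an embryonic alpha chain, and -0.19 and 0.03 at the start and end of *Lamb3*.

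Retained introns held some of the wider shifts among these genes. Their median absolute log2 ratio was 0.36 over 18 events, beside 0.22 over all 1064 retained introns of the array, and 3 of 18 were past the fold beside 9.87% of all retained introns. Several of the 18 came from the same gene, as in *Tgfb1i1*, *Lrp4* and *Adamts10*, so they do not count as repeats. Both values rest on few events and do not set these genes apart. Beside that of *Lamb1-1*, the introns past the fold were in *Adamts10* and *Lrp8*. *Adamts10*, a secreted metalloprotease that associates with fibrillin microfibrils, had 960 and 1318 for the spliced form of its 1104-nt intron (chromosome 17, 33665971 to 33667077) and 318 and 297 for the retained form, a log2 ratio of 0.56. *Lrp8*, a receptor for reelin, had only 66 and 86 for the spliced form of a 1706-nt intron (chromosome 4, 107544978 to 107546686) and 377 and 332 for the retained form, a log2 ratio of 0.57. In all 3 the spliced form was higher and the retained form lower in set B. Retained introns of *Tgfb1i1*, a focal adhesion adaptor that the symbol pattern takes although it is no ligand, went both ways. Its 103-nt intron had 151 and 137 spliced and 162 and 206 retained (log2 ratio -0.49), and its 125-nt intron had a log2 ratio of -0.43. Its introns of 113 and 1166 nt had log2 ratios of 0.31 and 0.22.

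**Figure D3:**
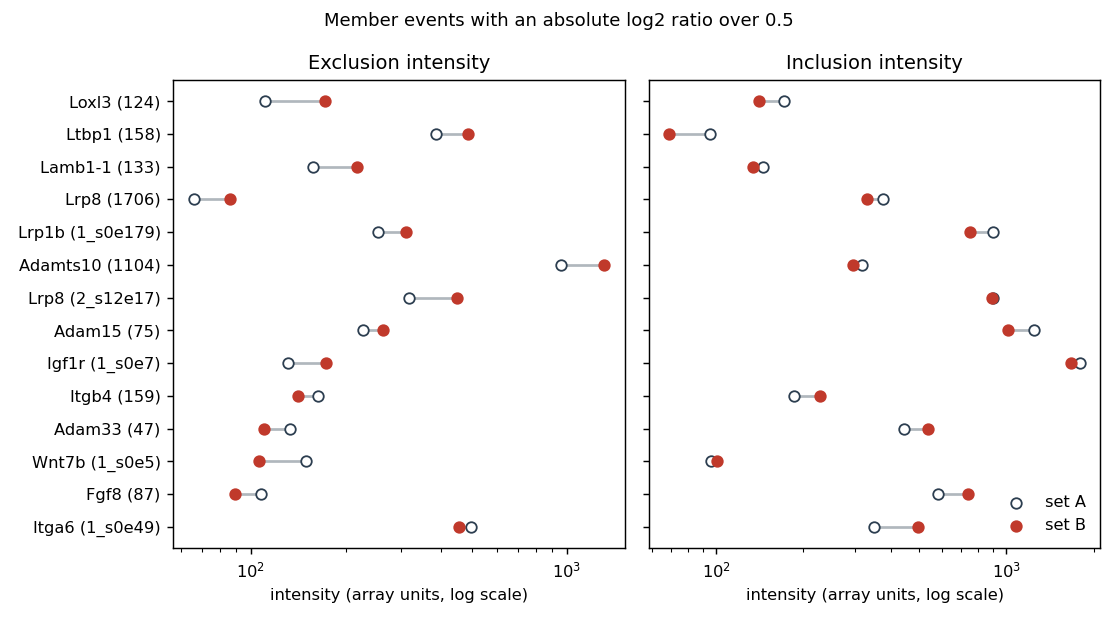
Exclusion and inclusion intensities (array units, log scale) in set A (open) and set B (red) for the 14 events past the fold, ordered from the highest to the lowest log2 ratio. In the upper 9 exclusion is higher and inclusion lower in set B, and in the lower 5 exclusion is lower and inclusion higher.

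The proteases of the Adam, Adamts and Mmp families shed cell surface proteins or cut the matrix, and 3 of the 46 events in this set were past the fold. It includes 4 events of *Adamtsl1*, *Adamtsl4* and *Adamtsl5*, whose products resemble Adamts proteins but lack a protease domain, and without them 3 of 42 were past the fold. *Adam15*, a membrane-bound disintegrin protease, had a 75-nt cassette (chromosome 3, 89144394 to 89145429) with exclusion of 226 and 262 and inclusion of 1246 and 1012, a log2 ratio of 0.51. An overlapping 72-nt cassette of the same gene had 186 and 160 for exclusion and 1053 and 901 for inclusion, so that both forms were lower in set B and the log2 ratio was 0.01. *Adam33*, another disintegrin protease, had a 47-nt cassette (chromosome 2, 130886958 to 130889151) with exclusion of 133 and 110 and inclusion of 443 and 536, a log2 ratio of -0.55. Its other 3 events had log2 ratios of -0.40, 0.40 and 0.44, so that 2 of its 4 events went each way. Among the brain-rich members, *Adam22* and *Adam23*, catalytically inactive receptors of the LGI proteins at synapses, stayed under the fold. *Adam23* had inclusion of 2475 and 2288 over exclusion of 112 and 92 at a 91-nt cassette (log2 ratio -0.17), and *Adam22* ranged from -0.35 to 0.35 over 4 events. *Adam10*, the main alpha-secretase, had a log2 ratio of -0.04. Of the Mmp genes, *Mmp14*, *Mmp15* and *Mmp16*, which are membrane-bound, had log2 ratios of -0.10, 0.16 and -0.07, and the widest Mmp value was -0.20, at a 41-nt complex event of *Mmp28*.

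Integrins pair an alpha and a beta chain into a receptor, and 2 of their 34 events were past the fold, 5.88% beside 7.34% of all events. Of the 34, 2 belong to *Itgb1bp1*, which codes for a cytoplasmic protein that binds integrins and had log2 ratios of 0.36 and 0.30, and without them 2 of 32 were past the fold. The events past the fold were in *Itga6* and *Itgb4*, whose products can pair as a laminin receptor of epithelial cells. *Itga6* had a complex event (chromosome 2, 71625001 to 71687557) with exclusion of 498 and 457 and inclusion of 350 and 497, a log2 ratio of -0.63, the lowest of all these genes. *Itgb4* had a 159-nt cassette (chromosome 11, 115867081 to 115867774) with exclusion of 163 and 141 and inclusion of 186 and 228, a log2 ratio of -0.50. In both, exclusion was lower and inclusion higher in set B. The other *Itgb4* events had log2 ratios of -0.26, -0.23 and -0.12, so that all 4 lay on 1 side of 0, although events of a gene share exons and probes and do not count as repeats. *Itga7*, a laminin receptor chain of muscle, had log2 ratios of -0.19 at the mutually exclusive exons and -0.11 at a 113-nt cassette, where exclusion was 1107 and 1229 and inclusion 588 and 704. *Itgb1*, the beta chain that most alpha chains share, had exclusion of 728 and 789 over inclusion of 76 and 76 at an 81-nt cassette (log2 ratio 0.12). The highest integrin log2 ratio was 0.39, at a start of *Itga3*, with exclusion of 197 and 316 and inclusion of 199 and 243.

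The proteoglycans and tenascins of the symbol pattern had 4 events in 3 genes, none past the fold. *Bcan* codes for brevican, a lectican of perineuronal nets, and its alternative end had exclusion of 1125 and 1117 and inclusion of 1305 and 1005, a log2 ratio of 0.37. *Tnc*, tenascin-C, a glial glycoprotein with variable fibronectin repeats, had 223 and 178 for exclusion and 164 and 173 for inclusion (-0.40). *Vcan*, versican, had log2 ratios of 0.09 at its 2880-nt cassette and -0.24 at its alternative end. The only thrombospondin with an event, *Thbs3*, had exclusion of 345 and 499 and inclusion of 136 and 147 at a 207-nt cassette (0.42). There were no events for *Tnr*, *Ncan*, *Hapln1*, *Sparc*, *Sparcl1*, *Col4a1* or *Col4a2*.

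Fgf ligands bind receptor tyrosine kinases, and 1 of the 22 Fgf events was past the fold. *Fgf8*, a patterning ligand of the embryonic midbrain and hindbrain, had an 87-nt cassette (chromosome 19, 45816169 to 45817005) with exclusion of 108 and 89 and inclusion of 582 and 738, a log2 ratio of -0.62. A second, overlapping *Fgf8* event had exclusion of 185 and 229 and inclusion of 140 and 173, with a log2 ratio of 0.00, so that the shift was seen at 1 of 2 overlapping events. The intracellular Fgf homologous factors, which bind sodium channels, had log2 ratios up to 0.22 in absolute size. That value was at an 83-nt alternative 3' splice site of *Fgf11*, with exclusion of 148 and 168 and inclusion of 1127 and 1096. *Fgf14* had exclusion of 303 and 303 and inclusion of 2827 and 2865 at its start (-0.02), and *Fgf12* had a log2 ratio of 0.19 at its end. *Fgf12* and *Fgf13* also had events with several starts and no exclusion path, with log2 ratios of 0.13 and 0.18 in absolute size. *Fgf1*, acidic Fgf, had log2 ratios of 0.25 at its start and -0.26 at a 90-nt cassette.

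The Fgf receptors are known for alternative exons of the third immunoglobulin domain, which set the ligands they bind. In *Fgfr2* the 145-nt cassette had exclusion of 86 and 114 and inclusion of 876 and 840 (log2 ratio 0.47), and the 148-nt cassette had exclusion of 208 and 222 and inclusion of 338 and 303 (0.25). Inclusion of both was lower in set B, by little. The mutually exclusive exons of *Fgfr1* (145 and 151 nt) had a log2 ratio of -0.10, with 1656 and 1801 for exclusion and 237 and 277 for inclusion. The 267-nt cassettes of *Fgfr1* and *Fgfr2* had log2 ratios of -0.10 and 0.10, and the events of *Fgfr3* had -0.18 and -0.10.

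None of the 18 Bmp and Tgfb events was past the fold. *Tgfb2*, a TGF-beta ligand, had log2 ratios of 0.25 at an 84-nt cassette and 0.19 at a 114-nt alternative 3' splice site. Its receptors had log2 ratios of 0.04 (*Tgfbr1*, start) and -0.25 (*Tgfbr2*, 75-nt cassette, exclusion 179 and 127, inclusion 338 and 286). *Bmp1*, a protease that trims procollagens in spite of its name, had log2 ratios of 0.38 and -0.11, and *Bmp8b*, a ligand, had 0.38 at its end and -0.05 at its start.

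Of the 9 Igf events only the *Igf1r* start was past the fold. *Igf1*, the ligand of that receptor, had log2 ratios of 0.06 at its start, -0.15 at its 52-nt cassette and 0.19 at its end, and *Igf2* had 0.16 at its start. The RNA-binding proteins *Igf2bp2* and *Igf2bp3*, taken by symbol, ranged from -0.16 to 0.32.

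Of the 5 Wnt events 1 was past the fold. *Wnt7b*, a ligand that drives vessel growth and barrier formation in the developing brain, had exclusion of 150 and 106 and inclusion of 96 and 101 at its alternative start (chromosome 15, 85389559 to 85412012), a log2 ratio of -0.57. By summed intensity the event was in the dimmest quartile. *Wnt10b* had 279 and 380 for exclusion and 294 and 287 for inclusion (0.48), and *Wnt5b* and *Wnt8a* had log2 ratios close to 0, at -0.04 and 0.06.

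Lrp receptors bind lipoproteins, reelin or Wnt ligands, and 3 of the 15 events of this set, in 2 genes, were past the fold, beside 7.34% of all events. Without *Lrp2bp*, which the symbol pattern takes although it is no receptor, it was 3 of 14. All 3 had relatively more exclusion in set B, the direction of 4.52% of all events against 2.72% in the other. Beside its retained intron, *Lrp8* had a complex event (chromosome 4, 107515929 to 107520069) with exclusion of 317 and 449 and inclusion of 899 and 891, a log2 ratio of 0.52. *Lrp1b*, a large endocytic receptor of neurons, had exclusion of 252 and 309 and inclusion of 900 and 750 at its alternative start (chromosome 2, 40467028 to 42509118), a log2 ratio of 0.56. The shift was on the exclusion side in *Lrp8* and on both sides in *Lrp1b*. The other 3 *Lrp8* events had log2 ratios of 0.37, -0.06 and, at its 177-nt cassette, -0.37. *Lrp1*, an endocytic receptor of neurons and glia, had a log2 ratio of -0.04, and the Wnt co-receptors *Lrp5* and *Lrp6* had 0.24 and 0.12. *Lrp4*, the agrin receptor, had 3 retained introns with log2 ratios of 0.36, -0.22 and -0.43.

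The direction of events within a gene was read in the 15 genes with 3 or more events. All log2 ratios lay on 1 side of 0 in 3 of them (*Col13a1*, *Itgb4* and *Col27a1*), and 4 held an event past the fold (*Adamts10*, *Lrp8*, *Adam33* and *Itgb4*). The matching shares over all genes of the array were not computed, so these counts do not set the genes apart. The 7 events of *Adamts10* ran from -0.35 to 0.56, and the low end was also a retained intron, of 88 nt, with 441 and 342 spliced and 426 and 422 retained. The 6 events of *Col25a1* ran from -0.44 to 0.25 on the log2 scale. The events with an exclusion path had -0.38 and 0.14 in *Adam28*, a disintegrin protease. The range was -0.27 to 0.25 in *Itgb6*, whose product activates TGF-beta, and -0.21 to 0.13 in *Itga2b*, a platelet integrin.

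**Figure D4:**
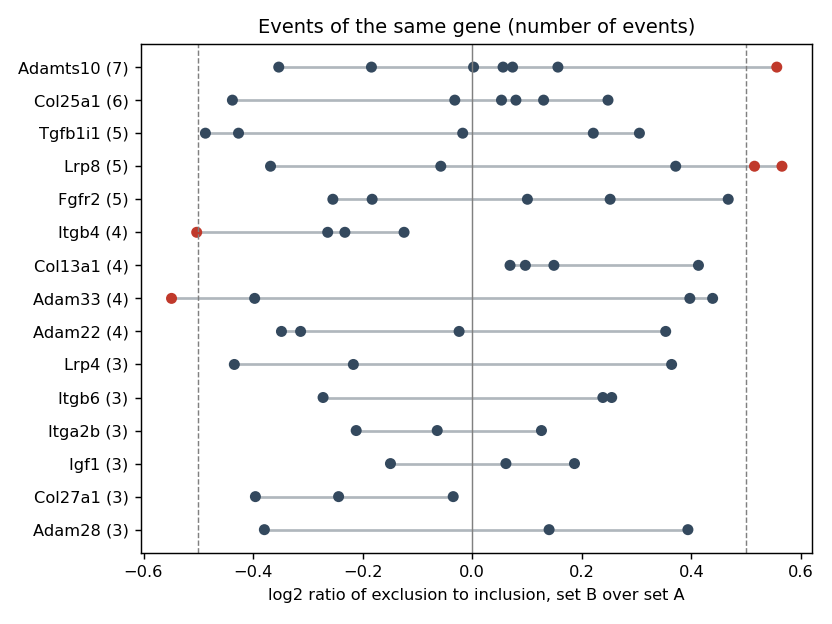
Log2 ratio of exclusion to inclusion, set B over set A, of every event in the 15 genes with 3 or more events. Red points are past 0.5 (dashed lines), and in all but 3 of the genes the points lie on both sides of 0. The highest point of *Adam28* (0.39) and the -0.31 of *Adam22* are events without an exclusion path, whose sign has no such meaning.

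The collagens had the lowest median absolute log2 ratio of the role groups. They form the triple-helical fibres, networks and transmembrane proteins of the matrix, and 0 of their 30 events in 18 genes was past the fold. Their median absolute log2 ratio was 0.07, beside 0.18 over all events, but their 90th percentile was 0.40, beside 0.45. The extremes were 0.44 at an end of *Col14a1*, where exclusion was 97 and 112 and inclusion 80 and 68, and -0.44 at mutually exclusive exons of *Col25a1*, where exclusion was 128 and 117 and inclusion 294 and 364. Without *Col4a3bp*, which is no collagen, the 7 cassettes of these genes were 27 to 111 nt long, with a median of 33 nt, and all 7 were a multiple of 3 nt, as were 53.4% of the 3763 cassettes on the array. Of the 7, 4 were also a multiple of 9 nt, all in *Col25a1* or *Col13a1*, beside 695 of the 3763 on the array. Such a length keeps the Gly-X-Y triplets of the collagen helix in register. Likewise without *Adamtsl5* and *Fgfr1op2*, which is neither an Fgf nor a receptor, cassettes of the proteases were a multiple of 3 nt in 2 of 8, both in *Adam15*, and those of the Fgf genes in 5 of 7. Those of the integrins were in 6 of 10.

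More of the collagen events than of all events had a higher summed intensity in set B. Summed intensity, exclusion plus inclusion, was taken here as the level at an event. It adds probe sets whose relative response is unknown, so a shift between the paths can also alter it, and events of the same gene can differ. It was higher in set B at 26 of the 30 collagen events, beside 48.6% of all events, with a median log2 difference of 0.19. Exclusion and inclusion were both higher in set B at 22 of the 30, beside 28.7% of all events, a share not matched for brightness. The 30 events lay in 18 genes, with 6 in *Col25a1*, 4 in *Col13a1* and 3 in *Col27a1*. Events of the same gene share transcripts and do not count as repeats, and the matching share over genes was not computed. *Col25a1*, a transmembrane collagen made by neurons, had summed intensities of 1419 and 1789 at its brighter 27-nt cassette and 812 and 1043 at its 45-nt cassette, log2 differences of 0.33 and 0.36. *Col13a1*, a transmembrane collagen of the neuromuscular junction, had 783 and 1050 at its 27-nt cassette (0.42) and was higher at all 4 of its events. *Col18a1*, a proteoglycan of basement membranes, had 1157 and 1417 at its 33-nt cassette (0.29) and 805 and 804 at its start. The fibrillar *Col3a1* and *Col5a3* had 670 and 751 (0.16) and 434 and 549 (0.34), and *Col1a2* only 395 and 416 (0.07). The 4 that were not higher were the *Col18a1* start, the alternative end of *Col25a1* (2798 and 2616, -0.10), *Col6a2* (643 and 615, -0.06) and *Col4a3bp*, which codes for a ceramide transfer protein (*Cert1* in RefSeq) and not a collagen. *Col16a1* stands on chromosome 7 in the table and on 4 in RefSeq, and its identity is uncertain. Without those 2 genes, 25 of 28 were higher.

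The summed intensity also varied with brightness. Over all events, it was higher in set B at 62.7% of the dimmest quartile, 49.3% and 42.5% of the middle quartiles and 40.1% of the brightest. Of the 28 collagen events, 11 of 11 in the dimmest quartile were higher, then 8 of 9, 5 of 6 and 1 of 2. After the median of its own quartile was taken from each of the 30 events, 26 were above 0, with a median of 0.17. The part of brightness in the collagen values was not tested beyond this. In bulk brain RNA, a change in the number of cells of a type and in RNA per cell cannot be told apart. Of 6 meningeal fibroblast markers on a fixed list of cell type markers, 2 had events. Together they had 2642 and 2496, with set B higher at 2 of 4 events, and the brightest gene, *Dcn*, had 868 and 646 (-0.43). The 3 events of the other gene, *Pdgfra*, which in brain also marks oligodendrocyte precursors, had 723 and 749, 541 and 594, and 510 and 507, so that the list rests on *Dcn* for fibroblasts, and its median log2 difference was 0.02. The endothelial and mural list, 3 of 11 genes with *Flt1* as the brightest, had 3763 and 3565 and was higher at 2 of 7 events. Defining markers without an event, such as *Lum*, *Cldn5* and *Pdgfrb*, could not be read, and the part of cell composition in the collagen values was not tested.

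**Figure D5:**
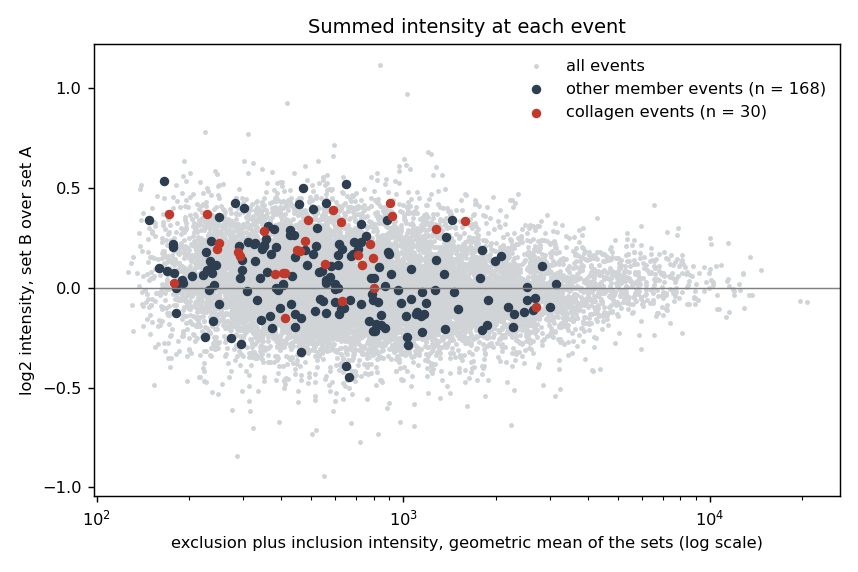
Log2 difference in summed intensity (exclusion plus inclusion), set B over set A, against the geometric mean of the sets (log scale), for all events in grey, the 30 collagen events in red and the 168 other events of these genes in dark blue. Of the red points 26 lie above 0, most of them at low or middle intensity.

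Over all 198 events summed intensity was higher in set B at 121 (61.1%), and at 95 of the 168 without the collagens (56.5%), beside 48.6% over the array. Of the 198, 72 were in the dimmest quartile, where 55 were higher, beside 62.7% of all events there. In the brighter quartiles 36 of 55, 19 of 45 and 11 of 26 were higher, beside 49.3%, 42.5% and 40.1%, so that the brightest quartiles were near the array's share. All 4 laminin events were higher, as were 24 of 34 integrin events, with the widest at the *Itga3* start (396 and 559, log2 difference 0.50). The proteoglycans and tenascins of the pattern were lower in set B at all 4 events, among them *Bcan* (2430 and 2122) and *Tnc* (387 and 351). Their log2 differences ran from -0.20 to -0.12, with a median of -0.17. Brain matrix genes outside the pattern did not all share this, with log2 differences in summed intensity of 0.01 in *Acan*, 0.05 and -0.16 in *Cspg5*, -0.09 and -0.10 in *Ptprz1* and -0.25 in *Reln*. These 4 genes were picked from a fixed list of matrix proteins and surface receptors. That list went mostly the other way, with summed intensity higher in set B at 23 of its 32 events. Growth factor sets were mixed, with 8 of 22 Fgf, 7 of 18 Bmp and Tgfb, 4 of 9 Igf and 4 of 5 Wnt events higher. *Igf1*, the growth factor itself, was lower in set B at all 3 of its events, which share transcripts. Its start had 743 and 566 (-0.39), its 52-nt cassette 774 and 568 (-0.45) and its end 475 and 414 (-0.20). Exclusion and inclusion were both lower at the start (245 and 192, 498 and 374) and the cassette (577 and 412, 197 and 156), while at the end exclusion was 106 and 102 and inclusion 369 and 312, so that the difference lay mostly in inclusion. *Igf2*, made largely in the choroid plexus and meninges, had 1141 and 935 (-0.29). *Fgfr2* was lower at all 5 of its events, by -0.20 to -0.01. Beside these, the astrocyte list had 40249 and 41546, the oligodendrocyte list 53104 and 51488, the neuron list 39286 and 37762 and the microglia list, which holds the member *Itgam*, 1767 and 1789. The choroid plexus list had an event for 1 of 7 genes only, *Folr1*, with 495 and 463. The part of cell composition in these values was not tested.

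The partners of these genes outside the symbol pattern were read from fixed lists. Of the Wnt receptors and effectors, 3 of 24 events in 12 genes were past the fold (12.5%), beside 7.34% of all events, which is also the background for the lists that follow. These were *Fzd5*, a Wnt receptor (log2 ratio -0.64), *Tcf7l2*, a transcription factor of the pathway (0.58, 69-nt cassette, exclusion 670 and 824, inclusion 440 and 362), and *Dvl1*, which relays the signal (0.60, 39-nt cassette, exclusion 360 and 553, inclusion 81 and 82). Of the BMP and TGF-beta receptors and effectors, 0 of 9 events was past it. Of the matrix proteins and surface receptors, 3 of 32 were, in *Sdc1* (0.64) and *Gpc2* (-0.59), which carry heparan sulphate, and in the collagen receptor *Ddr1* (0.59). Among the brain matrix genes of that list, *Cspg5*, a neural proteoglycan, had log2 ratios of exclusion to inclusion of 0.50, just under the fold, and -0.04. *Reln*, the ligand of *Lrp8*, had -0.41, *Acan*, a lectican of perineuronal nets, -0.37, and *Ptprz1* -0.13 and 0.01. *Fn1*, fibronectin, had log2 ratios from -0.24 to 0.45 over 5 events, with 0.10 and 0.20 at its 270-nt and 273-nt cassettes and 0.43 at a 165-nt one. Of the focal adhesion genes behind the integrins, 2 of 15 were, in *Parva* (0.68) and *Zyx* (-0.56). Each of these shares rests on few events. Other events of the same genes stayed under the fold, from -0.13 to 0.03 in *Dvl1* and -0.12 to 0.32 in *Tcf7l2*. They ran from -0.32 to 0.11 in *Ddr1*, with -0.09 in *Gpc2* and -0.34 and -0.29 in *Zyx*. Summed intensity was higher in set B at 11 of the 24 Wnt, 4 of the 9 BMP and TGF-beta, 23 of the 32 matrix and surface receptor and 4 of the 15 focal adhesion events, beside 48.6% of all events.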

How the data were processed

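Brain RNA was hybridized to MJAY arrays, and Affymetrix Power Tools is named in the submitters' processing notes. The authors deposited exclusion and inclusion intensities of each path as whole numbers, already summarized and pooled over the arrays of sets A and B. Normalization, background correction and the genome build are not given in the sources used here. The authors' separation scores and q-values, for a paired and a standard comparison, were not used. From the intensities of the paired comparison, the log2 ratio of each path was computed with no added constant. An event took the path with the largest absolute log2 ratio, turned to its exclusion path. Summed intensity was exclusion plus inclusion. Quartiles of the array were set by its geometric mean over the sets.

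The members and gene lists were chosen with earlier results of these data known. Named were events past the fold, the extremes of each role group, genes with 3 or more events and a fixed list of 38 genes, of which 29 had events. Some further events were named after their values were seen, as examples of their group. Symbols of 117 of the 119 genes matched RefSeq directly and 2 as synonyms. The ratio was checked on simulated data of 12553 events, where 200 changed events were all recovered (100%). The simulation checks the calculation only, and not how reliable a difference past the fold is in the pooled intensities. Other floors, added constants, folds, units of counting, centring and member lists were tried. The count of collagen events with a higher summed intensity in set B was not planned. The centring of summed intensities by quartile and the sets without *Col4a3bp*, *Col16a1*, *Lrp2bp*, *Itgb1bp1*, *Fgfr1op2* and the *Adamtsl* genes were chosen after seeing the data. The work ran under Python 3.11.15 with matplotlib 3.10.9, scipy 1.17.1, pandas 2.3.3 and numpy 2.4.6.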

Additional observations from a re-analysis of the deposited data

How the results depend on the processing

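No paired analysis was possible because the intensity columns are pooled over each set and carry no value per pair, and the authors' own paired scores were not used. Leaving out single animals could not be run for the same reason. The count of 14 events past the fold moved with constants added to the intensities, to 9 with 16 added and 5 with 50 added, beside 5.39% and 3.18% of all events. It was 28 of 402 over paths (6.97%), since both paths of an event were then counted, beside 7.06% of all paths. It was 2 over an absolute log2 ratio of 0.75 and 0 over 1, beside 1.15% and 0.224% of all events. Other settings gave 10 to 15, from 10 of 148 events with all intensities at least 100 (6.76%, beside 6.47% of all such events) to 15 over the log2 of 1.4 (7.58%, beside 8.10%). The median absolute log2 ratio ran from 0.14 to 0.20 over the settings. Centring on the median of all events took the share above 0 from 53.9% to 46.6%, while it puts the share over all events, 55.3% before, at 50% by construction, and left 11 of the 14 events past the fold, without those of *Adam15* and *Igf1r* and the complex event of *Lrp8*, while the 103-nt intron of *Tgfb1i1* came past it (-0.52). No log2 ratio of a named event past the fold changed sign. The small number of arrays and the low intensities of many of these events limit the precision.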
